A study of Mus musculus with 12 samples.

Results

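The combined change of Trex1 knockout and checkpoint antibodies was measured as the difference between 3 libraries labelled TREX1 KO-ICB and 3 libraries labelled CTRL-IgG. These are 6 of the 12 RNA-seq libraries of the series, and 13886 of the 23667 gene symbols in the deposited table were tested, namely those with 1 TPM or more in at least 3 of the 12 libraries. Each library is polyadenylated RNA of a mammary tumour formed by 4T1, a mouse mammary carcinoma line that grows in immunocompetent mice. In KO-ICB the 4T1 cells had been depleted of TREX1 with CRISPR-Cas9 and the mice received ICB, which is 200 ug of anti-PD1 with 100 ug of anti-CTLA4 given 3 times weekly for 1 week. In CTRL-IgG the cells were control 4T1 cells and the mice received matched isotype antibodies. The other 2 groups of 3 libraries, CTRL-ICB and KO-IgG, carry the antibodies alone and the knockout alone. The labels do not say whether the knockout cells are 1 clone or a pool, and they name no edit of the host mice. The 2 groups differ in genotype and treatment at once, so the comparison gives the sum of both interventions and their interplay.

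TREX1 is a nuclease that clears DNA from the cytosol. When it is lost, cytosolic DNA can engage sensors such as cGAS, whose signal leads to type I interferons and, through their receptor and the STAT and IRF factors, to a broad set of interferon-stimulated genes. PD1 and CTLA4 are receptors that restrain T cells, and antibodies against them release T cells, which in turn make interferon gamma, granzymes and chemokines. Bulk tumour RNA mixes carcinoma cells with lymphocytes, myeloid cells, vessels and stroma, and in such samples fewer cells of a type and less RNA per cell cannot be told apart.

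Trex1 itself, on chromosome 9 (GRCm38, chr9:109057933-109059734, minus strand), was measured at 32.8, 44.0 and 46.2 TPM in CTRL-IgG and at 56.2, 63.5 and 72.2 TPM in KO-ICB. All KO-ICB libraries lay above all CTRL-IgG libraries, so the transcript level does not show the loss that the label names, and the libraries are called KO here as labelled. The log2 fold change was 0.68 ± 0.22 (SE), with an adjusted p of 0.505. An exact two-sided permutation test over 2 and 3 samples gave p = 0.1, the smallest that its 10 splits allow. Trex1 was also between 56.0 and 66.3 TPM in the 3 KO-IgG libraries. The table gives one value per gene and cannot show where an edit lies in the transcript.

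KO-ICB replicates 1 and 2 were nearly the same library. Over genes above 300 TPM, the robust SD of their log2 ratio was 0.0382, and that of KO-IgG replicates 2 and 3 was 0.0614. The other 10 within-group pairs gave 0.232 to 0.684. Each of these pairs was therefore averaged to 1 sample, which leaves 10 samples, with n = 2 for KO-ICB and n = 3 for CTRL-IgG. Results over the 12 libraries as labelled are given beside. If a pair is 1 tumour, the fit over 12 libraries counts it more than once, and its p-values are too small. On the same measure, KO-ICB against CTRL-IgG libraries gave 0.326 to 0.672, within the range of the other within-group pairs. KO-IgG replicates 2 and 3 gave 0.195 to 0.223 against the KO-ICB libraries. That is closer than KO-ICB replicate 3 was to KO-ICB replicates 1 and 2, at 0.232 and 0.247. KO-IgG replicate 1 gave 0.556 to 0.669 against KO-ICB. Other libraries stood apart by their tissue makeup. Epcam, an epithelial adhesion molecule, was at 1113, 87.1 and 602 TPM in CTRL-IgG and at 1195 to 1239 TPM in KO-ICB, but at 0.662 TPM in KO-IgG replicate 1. The summed TPM of 18 keratinocyte genes was 5388 in CTRL-IgG replicate 3, against 424 and 80.9 in its other replicates and 406 to 407 in KO-ICB. The label of a 4T1 tumour was met by Krt8, a keratin of simple epithelium, at 754 to 1086 TPM in CTRL-IgG and 1016 to 1156 TPM in KO-ICB, beside T cell (Cd3e) and macrophage (Adgre1) transcripts in all 6 libraries. Adipoq, of adipocytes, was at 0.268 TPM or less in these 6 libraries. TPM keeps no depth, so the number of reads behind each value is unknown and no counting interval is given.

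With the pairs averaged, 0 of 13886 genes (0%) passed an adjusted p of 0.05 in limma, and the smallest adjusted p was 0.0639. At an unadjusted p under 0.05, 590 genes (4.25%) were higher in KO-ICB and 458 (3.30%) were lower. Over the 12 libraries, 13 genes (0.0936%) rose and 5 (0.0360%) fell past the same adjusted threshold. All 3 KO-ICB libraries lay above all 3 CTRL-IgG libraries for 1599 genes (11.5%) and below them for 1953 genes (14.1%). They lay above all 9 other libraries for 360 genes (2.59%) and below them for 190 genes (1.37%). These shares are the background for the list counts below. All such counts take the libraries as labelled, so the near-identical KO-ICB pair enters as 2 libraries and not as 1 sample. With that pair as 1 sample, 2 samples stand against 3, which allows only 10 splits. A single gene can then separate the groups without any true difference. The median log2 fold change of all genes was -0.05. The 13 genes that rose were Tnnc2, Ckm, Pvalb, Kctd12b, Mcpt-ps1, Fcer1a, Apol7c, Igtp, Ifi47, Ifng, Ctsw, Cfb and Sema3b, and the genes that fell included Dhcr7, Fads2, Il1r2 and Anxa5. With the pairs averaged their adjusted p ran from 0.0639 to 0.409, and all 18 kept an unadjusted p under 0.05. Leaving out 1 library of the 12 at a time gave 3 genes without KO-ICB replicate 1, 3 without KO-ICB replicate 2 and 5 without KO-ICB replicate 3. It gave 7 without CTRL-IgG replicate 2 and 28 without CTRL-IgG replicate 1. Without CTRL-IgG replicate 3, Igtp, Ifi47, Ifng, Fcer1a, Cfb, Sema3b and Fads2 no longer passed. Tnnc2 and Kctd12b were the genes among 17 of the 18 that passed in all 6 of these fits. Ifng, Fcer1a and Cfb passed in 0 of the 6, and Igtp, Ifi47, Sema3b, Dhcr7, Fads2 and Anxa5 in 1. Tnnc2, Ckm and Pvalb were among the genes tested only because of their levels in KO-ICB. The genes tested were held fixed in these fits, so the passes of those 3 genes give no further support. With the pairs averaged, 30 genes passed without KO-IgG replicate 1 and 29 without the averaged KO-IgG pair, libraries that enter the comparison through the shared spread.

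**Figure D1:**
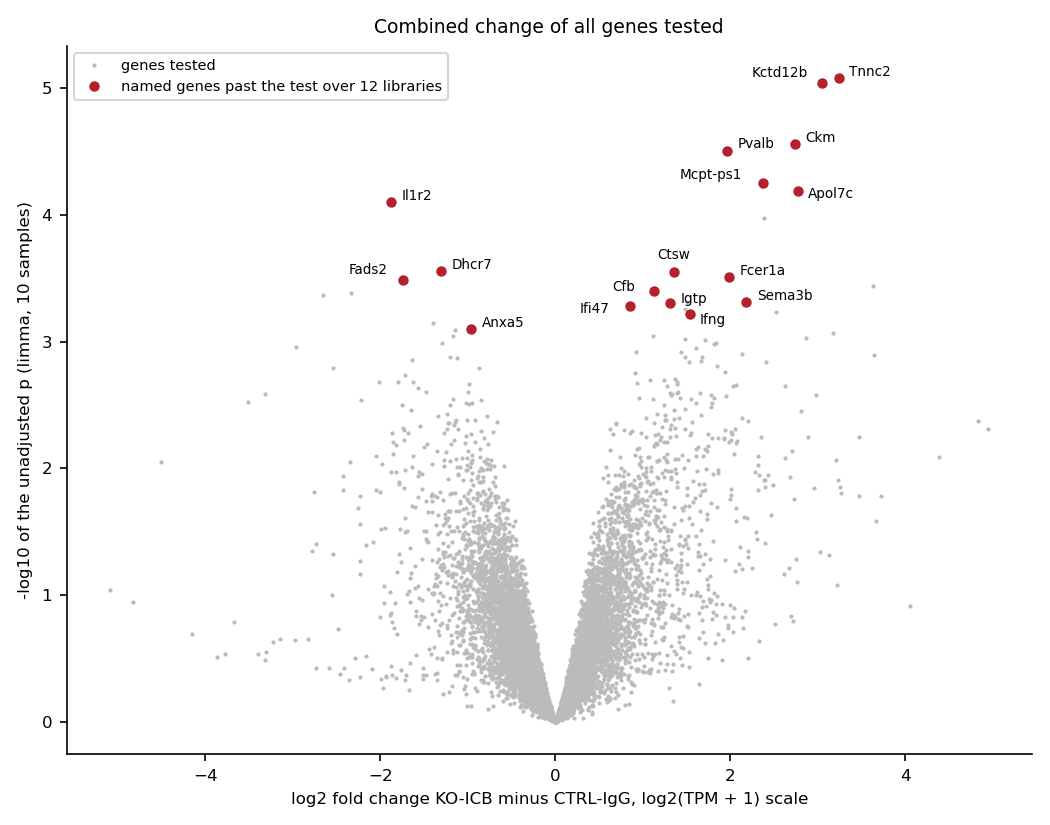
Each point is a gene, with the log2 fold change of KO-ICB minus CTRL-IgG on the horizontal axis and -log10 of the unadjusted limma p over 10 samples on the vertical axis. The 17 labelled genes passed the test over 12 libraries, and Tnnc2 and Kctd12b lie highest.

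Among the 13 genes that rose over the 12 libraries, the largest change was that of a skeletal muscle gene. Tnnc2, which encodes the calcium-binding troponin subunit of fast muscle (chr2:164777161-164779967), was at 1.36, 0.122 and 0 TPM in CTRL-IgG and at 12.7, 13.5 and 11.2 TPM in KO-ICB. No other library of the series exceeded 1.36 TPM. Its log2 fold change was 3.25 ± 0.39, with an adjusted p of 0.0639 with the pairs averaged and 0.00355 over the 12 libraries. Ckm, the muscle creatine kinase (chr7:19404776-19422841), was at 0.935, 0.264 and 0.387 TPM in CTRL-IgG and at 6.75, 4.95 and 13.8 TPM in KO-ICB. Pvalb, the calcium buffer parvalbumin (chr15:78191114-78206400), was at 0.109, 0 and 0 TPM against 2.21, 3.22 and 3.41 TPM. For both genes the KO-ICB libraries lay above all 9 others, with log2 fold changes of 2.75 ± 0.38 and 1.97 ± 0.27. The adjusted limma p was 0.0184 and 0.0100 over the 12 libraries, and 0.108 for both with the pairs averaged. Genes were tested if they reached 1 TPM in 3 of the 12 libraries, and Tnnc2, Ckm and Pvalb met this only through the KO-ICB libraries, so a difference was built into their being tested. The same holds for 9 of the 17 muscle genes tested. Of all 20 muscle genes in the table, 13 had all KO-ICB libraries above CTRL-IgG and 12 had them above all 9 others, with a median log2 fold change of 1.19. Of the 8 members that reached the level without KO-ICB, 6 lay above CTRL-IgG, 5 lay above all 9 others and 0 passed the adjusted limma test over the 12 libraries. Myl1, a fast myosin light chain, was at 2.99, 0.175 and 0 TPM in CTRL-IgG and at 12.3, 9.05 and 11.8 TPM in KO-ICB. In sum, the muscle list stood at 79.3, 58.7 and 44.2 TPM in CTRL-IgG and 183, 180 and 162 TPM in KO-ICB, and at 30.5 to 75.6 TPM in the 6 other libraries. These are low levels, and how much muscle each tumour sample held was not tested.

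Mast cell genes formed a second group at the top. Mast cells are granule-filled cells that carry the high-affinity IgE receptor and store proteases. Fcer1a, the ligand-binding chain of that receptor (chr1:173221284-173227214), was at 3.51, 4.04 and 4.58 TPM in CTRL-IgG and at 19.8, 21.5 and 17.4 TPM in KO-ICB. Its KO-ICB libraries lay above all 9 others, although KO-IgG reached 9.93 to 16.3 TPM. The log2 fold change was 1.99 ± 0.37, with an adjusted p of 0.363 with the pairs averaged and 0.0305 over the 12 libraries. Mcpt-ps1, a transcribed pseudogene of the mast cell protease family (chr14:55949809-55952350), was at 1.28, 0.896 and 1.83 TPM against 12.2, 12.1 and 9.92 TPM. It rose by 2.42 on the log2 scale over the 12 libraries, with an adjusted limma p of 0.0100, against 0.151 with the pairs averaged. Reads that Mcpt-ps1 shares with its protease relatives make its own level uncertain. Of 11 mast cell and basophil genes tested, 1 passed over the 12 libraries and 7 had all KO-ICB libraries above CTRL-IgG. The median log2 fold change was 1.48, or 1.03 over all 13 members in the table. Of the 11, 9 had a positive and 2 a negative change, the lowest at -0.76. Tpsb2, a mast cell tryptase, was at 38.6, 43.5 and 49.1 TPM against 179, 167 and 165 TPM, and Cpa3, the mast cell carboxypeptidase, at 26.7, 14.6 and 15.8 TPM against 66.6, 65.4 and 62.0 TPM. Neither passed the adjusted test, with values of 0.463 for both with the pairs averaged. The summed level of the list ran from 143 to 173 TPM in CTRL-IgG, from 456 to 512 TPM in KO-ICB and from 197 to 413 TPM in KO-IgG.

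**Figure D2:**
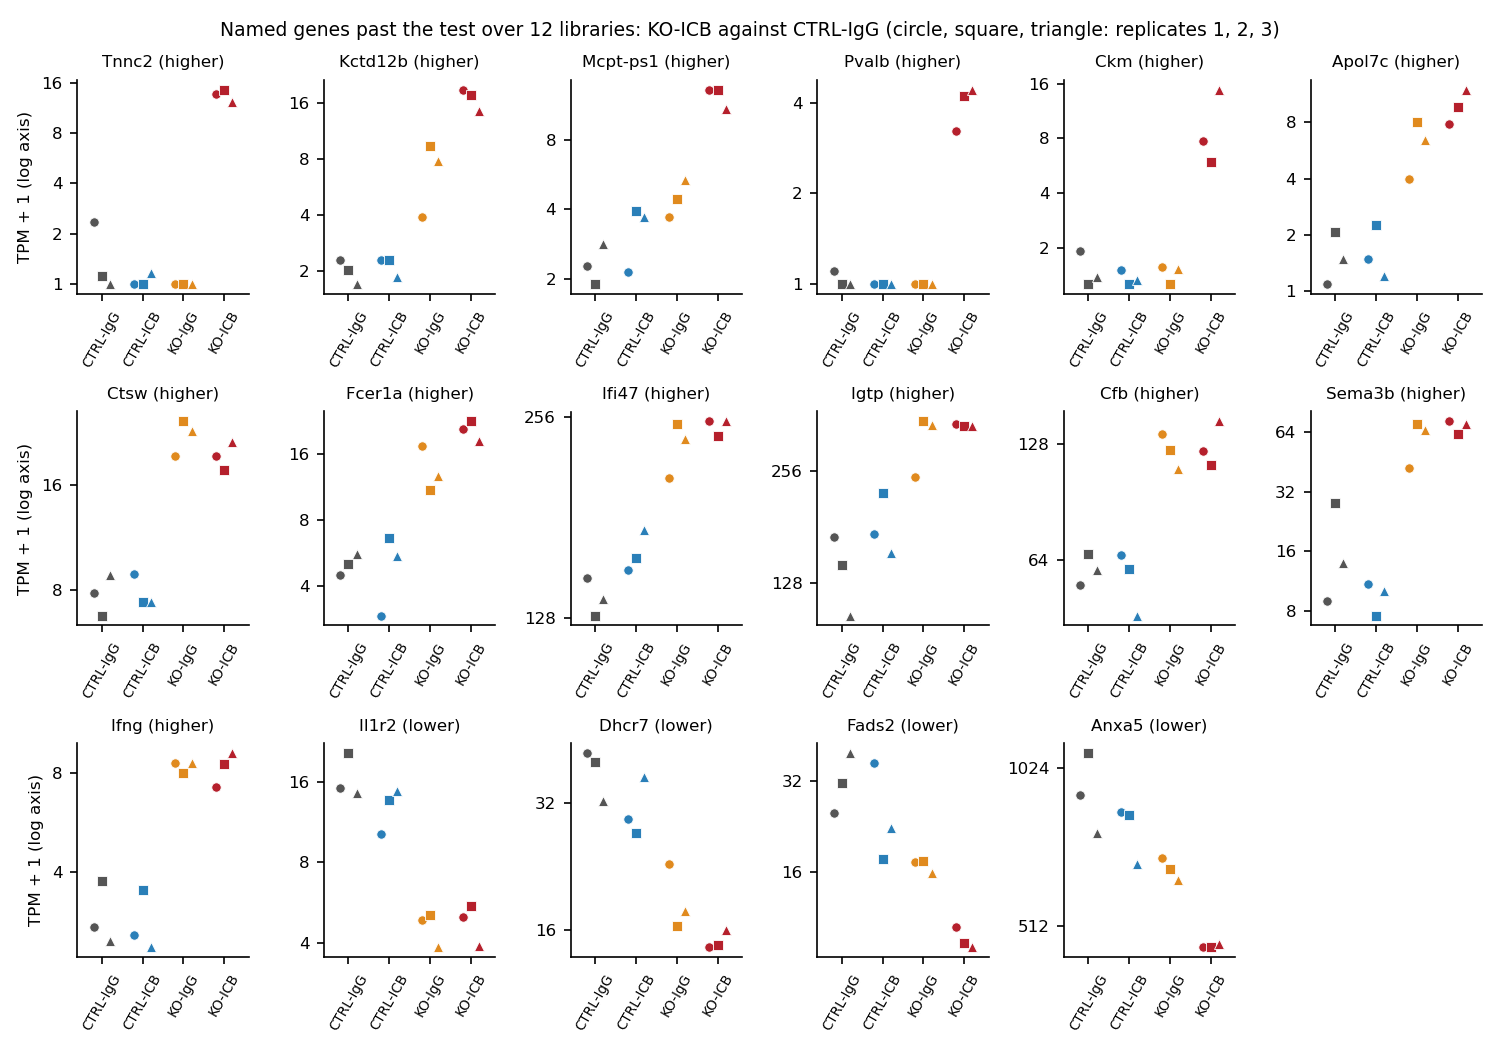
TPM + 1 on a log axis in each of the 12 libraries, by group, for 17 of the 18 genes past the test over 12 libraries, with 1 marker shape per replicate number. Tnnc2, Ckm and Pvalb are high in KO-ICB alone, whereas Ifng, Ctsw, Cfb and Il1r2 have about the same level in KO-IgG as in KO-ICB.

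Kctd12b and Apol7c are 2 further genes with large rises. Kctd12b, a member of the KCTD family (chrX:153685154-153696391), was at 1.27, 1.01 and 0.690 TPM in CTRL-IgG and at 18.0, 16.8 and 13.6 TPM in KO-ICB. Those of KO-IgG lay between, at 2.92, 8.43 and 6.85 TPM. Its log2 fold change was 3.05 ± 0.37, with an adjusted p of 0.0639 with the pairs averaged and 0.00359 over the 12 libraries. Apol7c, an apolipoprotein L family gene (chr15:77524852-77533316), was at 0.0881, 1.08 and 0.479 TPM in CTRL-IgG against 6.81, 8.65 and 10.96 TPM in KO-ICB. The KO-ICB and CTRL-IgG libraries did not overlap, but KO-IgG replicate 2, at 7.03 TPM, exceeded KO-ICB replicate 1. The rise was 2.77 ± 0.42, with an adjusted limma p of 0.151 with the pairs averaged and 0.0185 over the 12 libraries. Sema3b, a secreted semaphorin (chr9:107597674-107609229), was at 7.93, 27.0 and 13.02 TPM against 72.0, 61.9 and 69.5 TPM. Its adjusted limma p was 0.363 with the pairs averaged and 0.0451 over the 12 libraries.

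Interferon-stimulated genes had higher levels in KO-ICB throughout, although none passed the adjusted test. Of 38 genes on the type I interferon list, 38 had a positive log2 fold change, 31 had all KO-ICB libraries above CTRL-IgG, and none passed the adjusted test in either fit. At an unadjusted p under 0.05, 28 of the 38 were higher and 0 were lower, and the median log2 fold change was 1.22. Irf7, the interferon regulatory factor that amplifies interferon production, was at 95.3, 87.2 and 92.6 TPM in CTRL-IgG and at 332, 319 and 392 TPM in KO-ICB. Bst2, which tethers budding virions, was at 756, 903 and 720 TPM against 2083, 2089 and 2560 TPM, and Isg15, a ubiquitin-like modifier, at 132, 143 and 213 TPM against 548, 553 and 755 TPM. Ifi44l was at 40.9, 29.9 and 43.9 TPM against 132, 123 and 144 TPM. For these 4 genes the groups did not overlap, the log2 fold changes were 1.95 ± 0.49, 1.55 ± 0.39, 2.01 ± 0.56 and 1.82 ± 0.46, and the adjusted p over the 12 libraries was 0.133, 0.129, 0.155 and 0.129. The KO-IgG replicates were split. Irf7 was at 81.2 TPM in KO-IgG replicate 1 and at 379 and 386 TPM in replicates 2 and 3, and the summed level of the list was 2707 TPM in the first and 7754 and 7659 TPM in the others. KO-ICB had 7000 to 8146 TPM of the list and CTRL-IgG 2626 to 3229 TPM.

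Genes induced by interferon gamma included 2 that rose over the 12 libraries. Igtp, an immunity-related GTPase (chr11:58199556-58207591), was at 169, 142 and 104 TPM in CTRL-IgG and at 341, 338 and 338 TPM in KO-ICB. Ifi47, another GTPase of that family (chr11:49076587-49096974), was at 146, 128 and 136 TPM against 251, 239 and 251 TPM. Neither pair of groups overlapped, with log2 fold changes of 1.31 ± 0.26 and 0.86 ± 0.17. The adjusted limma p was 0.0435 and 0.0343 over the 12 libraries, and 0.363 for both genes with the pairs averaged. In KO-IgG both genes were in or near the KO-ICB range, at 246 to 348 TPM for Igtp and 206 to 249 TPM for Ifi47. Of 29 tested genes of the list, 16 had all KO-ICB libraries above CTRL-IgG, 27 had a positive change, and the median was 0.59. Socs1, the feedback inhibitor of JAK signalling, was at 9.94, 19.8 and 14.3 TPM against 36.9, 36.4 and 42.9 TPM, with an adjusted p of 0.0979 over the 12 libraries. Of 26 genes for sensing of cytosolic nucleic acids, 9 had all KO-ICB libraries above CTRL-IgG and the median was 0.42. Zbp1, a sensor of Z-form nucleic acids, was at 159, 141 and 144 TPM against 244, 241 and 295 TPM.

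Interferon signals act on promoters through 2 short elements, and promoters of 4 genes with higher levels are shown for that reason, with the element in capitals. The interferon-stimulated response element was searched as GAAANNGAAA and the gamma-activated site as TTCNNNGAA, on both strands, in RefSeq promoters of build GRCm38.p6 that run from 250 bases before to 50 bases after each gene's start. The windows below are 60 bases long, 5′ to 3′ on the gene's strand. Isg15 was chosen for display after its values were seen, and the other genes are among those that the rule for named genes gives. Each promoter shown holds its element, so the 4 genes do not stand for all genes that rose.
Igtp, chr11:58199497-58199556, plus strand, response element: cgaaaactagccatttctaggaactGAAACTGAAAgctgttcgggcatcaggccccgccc
Igtp, chr11:58199486-58199545, plus strand, gamma-activated site: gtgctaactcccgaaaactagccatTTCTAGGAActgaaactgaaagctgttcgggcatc
Bst2, chr8:71537562-71537621, minus strand, response element: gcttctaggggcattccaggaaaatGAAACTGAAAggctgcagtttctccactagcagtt
Isg15, chr4:156200850-156200909, minus strand, response element: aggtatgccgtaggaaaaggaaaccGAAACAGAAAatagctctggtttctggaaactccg
Apol7c, chr15:77533330-77533389, minus strand, response element on the opposite strand: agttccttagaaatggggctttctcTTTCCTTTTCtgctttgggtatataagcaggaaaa
Counted from the gene's start, the elements of Igtp begin at positions -34 and -45 and do not overlap. Those of Bst2, Isg15 and Apol7c begin at -124, -66 and -49.

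The table held a promoter for 10373 of the 13886 genes tested, and 3.98% of those promoters held the response element. The share was 10.8% (42 of 389) for genes higher at an unadjusted p under 0.05 and 2.24% (8 of 357) for genes lower at that level. It was 53.6% (15 of 28) on the type I interferon list and 66.7% (12 of 18) on the interferon gamma list. The gamma-activated site was in 8.41% of all promoters and in 50% (9 of 18) of those on the interferon gamma list. It was in 10.3% (40 of 389) of the higher genes, 7.56% (27 of 357) of the lower genes and 17.9% (5 of 28) of the type I list. Of the 18 genes past the test over 12 libraries, 12 had a promoter. The response element was in 2 of these 12 and the gamma-activated site in 3. A sterol regulatory element, searched as TCACNCCAC on both strands, was in 1.31% of all promoters, in 1.68% (6 of 357) of those of the lower genes and in 1 of 11 on the cholesterol list. A match is a description of the letters and not a measured binding site.

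**Figure D3:**
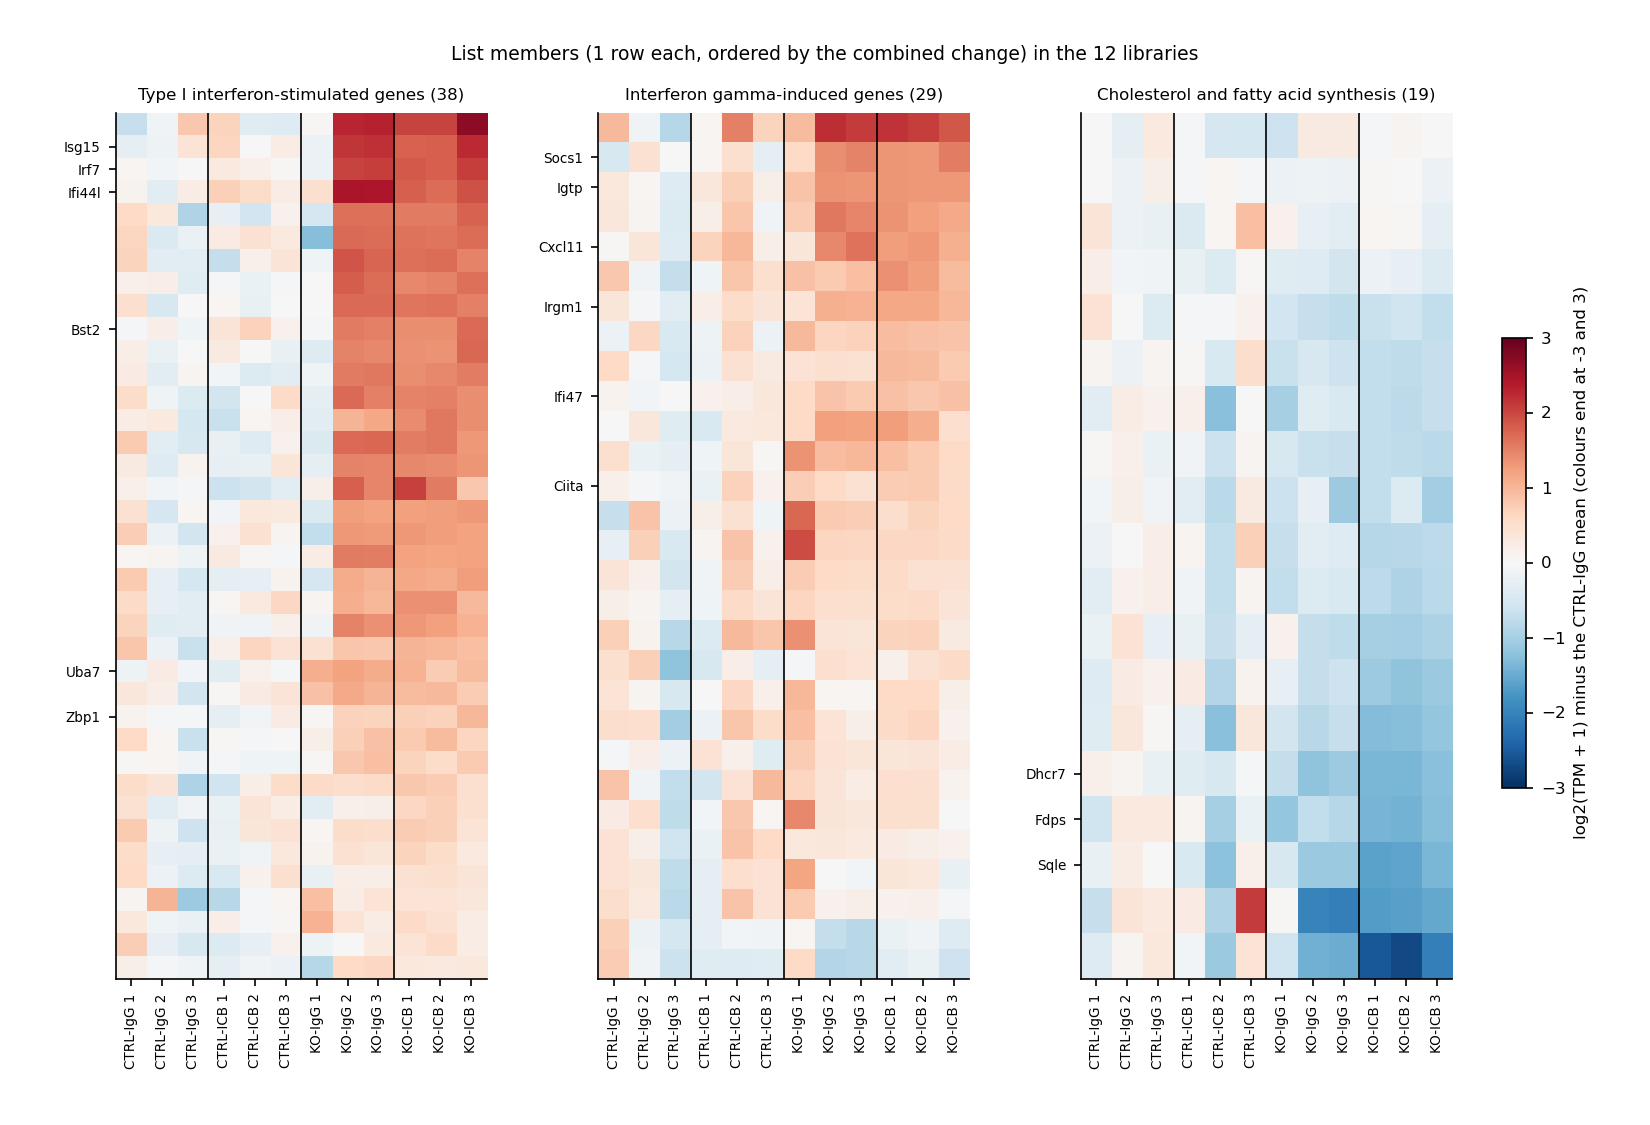
Colour gives log2(TPM + 1) minus the CTRL-IgG mean for each member (row) of the type I interferon, interferon gamma and cholesterol lists in the 12 libraries (columns). KO-ICB and KO-IgG replicates 2 and 3 are red on the first list while KO-IgG replicate 1 is near 0, and on the third list 16 of 19 members have all KO-ICB libraries below CTRL-IgG.

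Of the genes of cytotoxic lymphocytes, 2 rose over the 12 libraries. Ifng, which encodes interferon gamma (chr10:118441046-118445892), was at 1.73, 2.77 and 1.47 TPM in CTRL-IgG and at 6.26, 7.52 and 8.21 TPM in KO-ICB. Ctsw, a cathepsin of cytotoxic cells (chr19:5465043-5468507), was at 6.84, 5.73 and 7.79 TPM against 18.4, 16.7 and 20.3 TPM. The groups did not overlap, and the log2 fold changes were 1.54 ± 0.31 and 1.36 ± 0.25. The adjusted limma p was 0.0456 and 0.0274 over the 12 libraries, and 0.363 for both genes with the pairs averaged. KO-IgG had about the same levels, at 6.99 to 7.58 TPM for Ifng and 18.4 to 23.4 TPM for Ctsw, while CTRL-ICB had 1.37 to 2.52 and 6.35 to 7.86 TPM. Gzmb, the granule protease granzyme B, was at 16.3, 28.5 and 7.20 TPM in CTRL-IgG and 103, 102 and 94.5 TPM in KO-ICB, above all 9 other libraries, with an adjusted p of 0.0743 over the 12 libraries. Of 17 cytotoxic genes tested, 10 had all KO-ICB libraries above CTRL-IgG, 13 had a positive and 4 a negative log2 fold change, and the median was 0.84. The 4 with a negative value were the granzymes Gzmd, Gzme, Gzmf and Gzmg, whose groups overlapped, and the lowest was Gzmf at -0.82.

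Markers of NK cells, lymphocytes that kill without antigen receptors, had all KO-ICB libraries above CTRL-IgG for 11 of the 16 members in the table, with a median log2 fold change of 0.83. Of the 13 tested, 3 were tested only through KO-ICB, and of the other 10, 8 lay above, with a median of 1.05. Ncr1, the activating receptor NKp46, was at 2.74, 2.31 and 0.889 TPM in CTRL-IgG against 8.75, 7.35 and 10.2 TPM in KO-ICB, with an adjusted p of 0.0690 over the 12 libraries. The summed NK list was 25.8 to 36.5 TPM in CTRL-IgG, 68.1 to 80.3 TPM in KO-ICB and 71.7 to 131 TPM in KO-IgG. Of 23 T cell genes in the table, 12 lay above CTRL-IgG in all KO-ICB libraries and 0 below, with a median of 0.53. Cd3g, the CD3 gamma chain, was at 10.6, 12.6 and 9.04 TPM against 26.8, 27.0 and 26.8 TPM, but Cd3e, the epsilon chain, overlapped at 3.76 to 8.51 against 7.81 to 9.85 TPM. KO-IgG replicate 1 had the highest level of both chains, at 61.4 and 25.3 TPM. Of 13 checkpoint and exhaustion genes, 5 lay above and 1 below CTRL-IgG in all KO-ICB libraries, with a median of 0.37. Over all genes tested, 11.5% lay above and 14.1% below.

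Chemokines that attract lymphocytes had 9 of 15 members with all KO-ICB libraries above CTRL-IgG and a median log2 fold change of 0.72. Ccl5, which draws T cells, was at 24.1, 49.0 and 56.7 TPM in CTRL-IgG and at 151, 142 and 149 TPM in KO-ICB, below the 174 to 232 TPM of KO-IgG. Xcl1, the ligand of the dendritic cell receptor XCR1, was at 0.612, 6.58 and 7.12 TPM against 30.6, 24.02 and 36.2 TPM. Their adjusted p over the 12 libraries was 0.0629 and 0.129, so neither passed. Antigen presentation genes lay higher by smaller steps. Of 23 genes for MHC class I presentation, 15 lay above and 1 below CTRL-IgG in all KO-ICB libraries, with a median of 0.33, and of 13 class II genes 11 lay above, with a median of 0.56. Over all genes tested, 11.5% lay above and 14.1% below. H2-T23, a nonclassical class I gene, was at 652, 609 and 526 TPM against 1092, 1075 and 1199 TPM. H2-Eb1, a class II chain, was at 1227, 1427 and 1609 TPM against 2380, 2346 and 2956 TPM. Neither passed the test over the 12 libraries, with adjusted p of 0.0841 and 0.179. Reads of class I genes can be shared among close relatives, which makes single members uncertain.

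Cfb, complement factor B of the alternative pathway (chr17:34856374-34862518), rose over the 12 libraries. It was at 53.8, 65.1 and 59.1 TPM in CTRL-IgG and at 122, 112 and 146 TPM in KO-ICB, with a log2 fold change of 1.13 ± 0.22 and an adjusted p of 0.0449. KO-IgG had a like level, at 110 to 136 TPM. C4b, a component of the classical pathway, was at 35.5, 40.9 and 31.5 TPM against 122, 119 and 109 TPM, with an adjusted p of 0.0945 over the 12 libraries. Of 15 complement genes, 7 lay above CTRL-IgG in all KO-ICB libraries and the median was 0.24. The share above over all genes tested was 11.5%.

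Genes of cholesterol synthesis had lower levels in KO-ICB. Dhcr7, which makes the last step from 7-dehydrocholesterol to cholesterol (chr7:143823145-143848410), was at 41.1, 38.9 and 31.4 TPM in CTRL-IgG and at 13.6, 13.8 and 15.02 TPM in KO-ICB, which lay below all 9 others. Its log2 fold change was -1.31 ± 0.24, with an adjusted p of 0.363 with the pairs averaged and 0.0274 over the 12 libraries. Of 19 genes of cholesterol and fatty acid synthesis, 16 had all KO-ICB libraries below CTRL-IgG, 10 had them below all 9 others, and 18 had a negative change, with a median of -0.81. Sqle, squalene epoxidase, was at 56.3, 76.3 and 66.0 TPM against 20.9, 21.4 and 25.0 TPM, and Fdps, farnesyl diphosphate synthase, at 127, 236 and 234 TPM against 72.6, 71.2 and 78.6 TPM. Their adjusted p over the 12 libraries was 0.0839 and 0.0979. The summed level of the list was 1183, 1329 and 1282 TPM in CTRL-IgG and 728, 734 and 720 TPM in KO-ICB. It was 822 to 852 TPM in KO-IgG and 820 to 1360 TPM in CTRL-ICB.

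Fads2, a fatty acid desaturase outside that list (chr19:10062765-10101746), was at 24.1, 30.5 and 38.7 TPM in CTRL-IgG and at 9.46, 8.28 and 7.98 TPM in KO-ICB, below all 9 others. It fell by 1.73 on the log2 scale over the 12 libraries, with an adjusted limma p of 0.0343, against 0.363 with the pairs averaged. Anxa5, which encodes the phosphatidylserine-binding protein annexin A5 (chr3:36448923-36475894), was at 908, 1094 and 768 TPM against 466, 467 and 473 TPM, also below all 9 others. Its log2 fold change was -0.96 ± 0.20, and its adjusted p was 0.409 with the pairs averaged and 0.0435 over the 12 libraries. Of the 5 genes that fell, 4 lay below all 9 other libraries, and of the 13 that rose, 6 lay above all 9.

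Il1r2, the decoy receptor for interleukin 1 that neutrophils carry (chr1:40074079-40125231), also fell. It was at 14.2, 19.6 and 13.6 TPM in CTRL-IgG and at 4.01, 4.47 and 2.90 TPM in KO-ICB, with a log2 fold change of -1.87 ± 0.29 and an adjusted p of 0.0190 over the 12 libraries. KO-IgG was as low, at 2.85 to 4.09 TPM. S100a8, a calgranulin of neutrophils, was at 169, 192 and 249 TPM in CTRL-IgG against 22.4, 25.2 and 26.0 TPM in KO-ICB, with an adjusted p of 0.0690 over the 12 libraries. The neutrophil list lay in both directions. Of 16 members tested, 7 lay below and 2 above CTRL-IgG in all KO-ICB libraries, and the median was -0.71. The neutrophil sum overlapped, at 1536 to 3687 TPM in CTRL-IgG and 1903 to 2321 TPM in KO-ICB. Ltf, the granule protein lactoferrin, was at 2.97, 1.57 and 5.78 TPM against 25.4, 31.2 and 23.5 TPM, so it was higher, with an adjusted p of 0.151 over the 12 libraries. Among inflammatory cytokines and NF-kB targets, 5 of 21 lay below and 1 above, with a median of -0.20. Of all genes tested, 14.1% lay below and 11.5% above. Ptgs2, the inducible cyclooxygenase, was at 23.4, 46.8 and 11.2 TPM against 7.64, 7.82 and 4.35 TPM, and did not pass, with 0.153 over the 12 libraries.

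**Figure D4:**
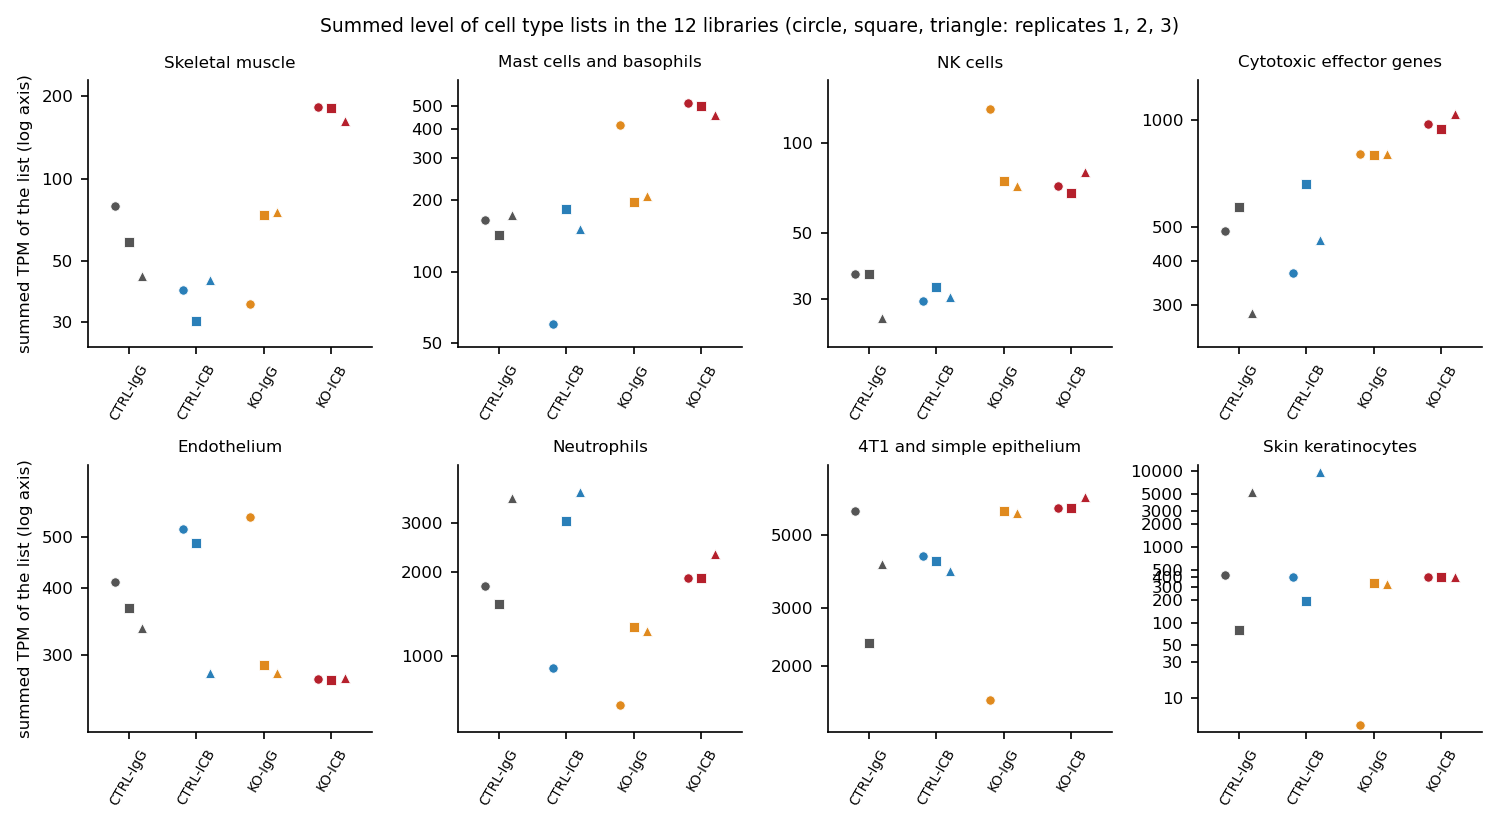
Summed TPM of 8 cell type lists on log axes in each of the 12 libraries, by group, with 1 marker shape per replicate number. The muscle, mast cell and cytotoxic sums are highest in KO-ICB, the keratinocyte sum is far above the rest in CTRL-IgG replicate 3 and CTRL-ICB replicate 3, and KO-IgG replicate 1 is lowest for the epithelial and keratinocyte lists.

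Most genes of vessels, stroma and the mesenchymal state had negative changes. None of the endothelial, fibroblast or transition genes passed the adjusted limma test in either fit, and 0, 1 and 5 of them were lower at an unadjusted p under 0.05. Over all genes tested, 3.30% were lower at that level, and 14.1% lay below CTRL-IgG in all KO-ICB libraries. Of 15 endothelial genes, 12 had all KO-ICB libraries below CTRL-IgG, with a median log2 fold change of -0.66. Pecam1, an adhesion molecule of endothelium, was at 47.7, 40.9 and 26.4 TPM against 19.9, 22.8 and 19.4 TPM. The endothelial sum was 337 to 411 TPM in CTRL-IgG and 270 to 272 TPM in KO-ICB, while KO-IgG replicate 1 had 545 TPM and replicates 2 and 3 had 288 and 278 TPM. Of 22 fibroblast and matrix genes, 9 lay below and none above, with a median of -0.73. The fibroblast sum overlapped, at 5897, 2507 and 6077 TPM in CTRL-IgG and 2928 to 3105 TPM in KO-ICB. Dcn, the matrix proteoglycan decorin, was at 21.6, 56.2 and 75.9 TPM against 12, 13.3 and 11.7 TPM. Of 14 genes of the epithelial-mesenchymal transition, 6 lay below and 14 had a negative change, with a median of -0.73. Vim, the intermediate filament vimentin, was at 1791, 2869 and 1554 TPM against 576, 608 and 310 TPM, with a log2 fold change of -2.22 ± 0.56 and an adjusted p of 0.135 over the 12 libraries.

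Epithelial genes were higher in 17 of 18 tested members, with a median of 0.89, but 7 had all KO-ICB libraries above CTRL-IgG and none passed the adjusted limma test, with 0 higher and 1 lower at an unadjusted p under 0.05. Their spread within CTRL-IgG was wide, since CTRL-IgG replicate 2 had a sum of 2350 TPM for the list against 5926 and 4089 TPM in replicates 1 and 3 and 6058 to 6556 TPM in KO-ICB. The exception was Msln, the surface protein mesothelin, at 128, 145 and 125 TPM against 71.2, 70.5 and 61.4 TPM, with an adjusted p of 0.0966 over the 12 libraries. Of 22 genes of hypoxia and glycolysis, 8 lay below and 1 above CTRL-IgG in all KO-ICB libraries, with a median of -0.57, and 5 lay below all 9 others. Ldha, lactate dehydrogenase A, was at 1098, 1710 and 886 TPM against 620, 622 and 606 TPM. Of 26 cell cycle genes, 15 lay below and none above, with a median of -0.37. Over all genes tested, 14.1% lay below and 11.5% above. Ccna2, cyclin A2, was at 60.8, 78.5 and 57.0 TPM against 28.4, 27.8 and 24.7 TPM, with an adjusted p of 0.138 over the 12 libraries.

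**Figure D5:**
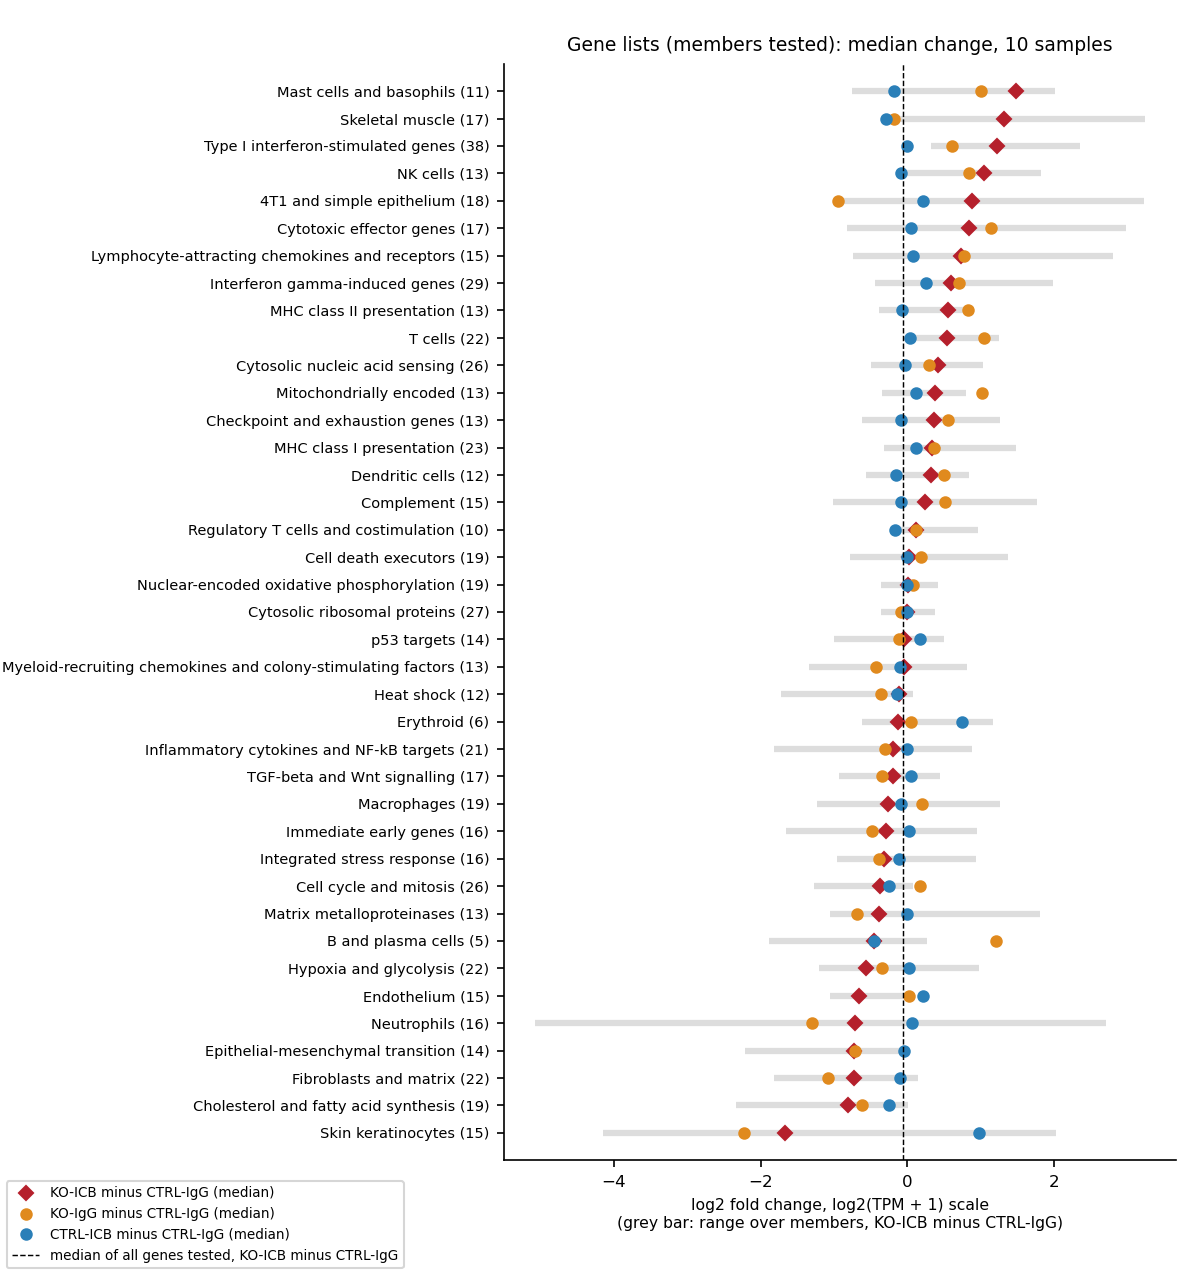
Median log2 fold change of each gene list of 5 or more tested members, with the range over members for KO-ICB minus CTRL-IgG as a grey bar. The 3 comparisons share the CTRL-IgG libraries, and the muscle list is at 1.32 for the combination, where 9 of its 17 members were tested only through the KO-ICB libraries, beside -0.18 and -0.29 for the knockout alone and the antibodies alone.

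The combined change can be set beside the changes of each intervention alone, with the reservation that all 3 share the CTRL-IgG libraries, so their likeness is in part built in. For the type I interferon list, the median log2 fold change was 1.22 for the combination, 0.60 for the knockout alone and -0.01 for the antibodies alone. The knockout value averages libraries that differ, and it was 1.26 without KO-IgG replicate 1 and -0.09 without the averaged KO-IgG pair. The cytotoxic list had 0.84, 1.13 and 0.05, the mast cell list 1.48, 1.01 and -0.19, and the cholesterol list -0.81, -0.61 and -0.25. Without KO-IgG replicate 1, which also stood apart in its epithelial transcripts, the knockout value of the mast cell list was 0.28, and that of the cytotoxic list 0.765. Single genes spread more. Ifng had log2 fold changes of 1.54, 1.52 and -0.08, Igtp of 1.31, 1.10 and 0.41, and Kctd12b of 3.05, 1.56 and 0.10. The knockout value of Kctd12b was 2.13 without KO-IgG replicate 1.

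The departure of KO-ICB from the sum of both single changes was tested per gene. With the pairs averaged, limma called 0 genes, with 196 at an unadjusted p under 0.05, and over the 12 libraries it called 1 gene, with 349 at that level. The gene was Tnnc2, with a departure of 4.14 ± 0.44 on the log2 scale and an adjusted p of 0.0117 over the 12 libraries, against 4.11 and 0.301 with the pairs averaged. Tnnc2 was among the 350 genes that reached 1 TPM in 3 libraries only through KO-ICB, so a high level in that group was needed for it to be tested, and the same holds for Ckm and Pvalb. Without any one of the 3 KO-ICB libraries, 0 genes were called over the remaining libraries. The next muscle genes, Ckm and Pvalb, had departures of 2.74 and 2.02 over the 12 libraries with adjusted p of 0.311 and 0.233. For the other 14 named genes that rose or fell, the departure lay between -0.44 and 1.26, and none passed. With this number of samples a miss does not show that the 2 interventions add up.

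Further lists are set beside the 11.5% of all genes tested that lay above CTRL-IgG in all KO-ICB libraries and the 14.1% below. The keratinocyte list had a median of -1.67, which turned to 0.22 without CTRL-IgG replicate 3, and 0 of 15 members lay outside CTRL-IgG. Of 5 B and plasma cell genes tested, 1 lay below and 0 above, with a median of -0.46. Of 13 matrix metalloproteinase genes tested, 3 lay below and 1 above, with a median of -0.39. Macrophage genes had 4 of 19 members below CTRL-IgG in all KO-ICB libraries and none above, with a median of -0.27, or -0.00915 without CTRL-IgG replicate 2. Of 14 dendritic cell genes in the table, 7 lay above and 1 below, with a median of 0.30, or -0.15 among members with 5 TPM or more in 3 libraries. Of 12 regulatory T cell and costimulation genes in the table, 2 lay above, with a median of 0.11. Cytosolic ribosomal protein genes had 1 of 27 above and 4 below, with a median of 0.00 that changed sign with the scaling, to 0.07 after median centring. Mitochondrially encoded transcripts had 0 of 13 members outside the CTRL-IgG range in all KO-ICB libraries, with a median of 0.37 that turned to -0.06 without the averaged KO-ICB pair. Their sum was 35650, 47350 and 25930 TPM in CTRL-IgG against 56520, 54950 and 35460 TPM in KO-ICB.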

How the data were processed

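RNA from mammary tumours was sequenced after polyadenylated selection, per the labels' protocols, which describe 3 different tumours per group. The authors deposited 1 table of TPM values (a length-normalized share of each library) for 23667 gene symbols in 12 libraries. Per the submitters' processing notes, kallisto and GRCm38 were used, whose version, transcript set and strand setting were not given in the sources used here. Libraries were grouped by their titles. Because TPM is relative, a large shift of abundant transcripts moves all others, and depth is unknown. GENCODE M21 gave coordinates for 22898 symbols (96.8%).

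Linear models with 4 group means were fitted on log2(TPM + 1) in limma 3.58.1 (R 4.3.3) with trend and robust shrinkage, over 10 samples after averaging the near-identical pairs in TPM and over 12 libraries. Benjamini-Hochberg adjustment ran over 13886 genes, with a threshold of 0.05. Folds of low genes are understated on this scale. The scripts were tested on simulated data. The limma p-values set each difference against the spread between these samples, pooled over the 4 groups and shrunk across genes. The 40 gene lists, the members and the tests were chosen with earlier results of these data known, so lists get counts and medians and no test. Named genes are Trex1, up to 15 with the largest change each way past the test (filled by the smallest p where none passes), those beyond all 9 other libraries, list members past the test or among the 4 smallest p of their list, and the markers of cell types. Alternatives were other scalings, filters, a pseudocount of 0.1, a fit of only the 2 groups, array weights, the replicate block and left-out libraries. Values without KO-IgG replicate 1 for the knockout alone, and counts of members tested only through KO-ICB, were added after seeing the data. A gene past the test is not reported here.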

Additional observations from a re-analysis of the deposited data

Results flagged for a closer look

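Tnnc2 departed from the sum of both single changes over the 12 libraries, by 4.14 on the log2 scale, because it was at 11.2 to 13.5 TPM in the 3 KO-ICB libraries and at 1.36 TPM or less in the other 9. The adjusted p of this departure was 0.0117 over the 12 libraries and 0.301 with the near-identical pairs averaged (limma). The summed level of the muscle list moved with it, at 162 to 183 TPM in KO-ICB against 30.5 to 79.3 TPM elsewhere, and 12 of the 20 muscle genes in the table had all KO-ICB libraries above the 9 others. Tnnc2 reached the level required for testing only through the KO-ICB libraries. The part that muscle in the sampled tissue plays in this value was not tested.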

How the results depend on the processing

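With the pairs averaged, 0 genes passed, and this count stayed at 0 under quantile normalization, rescaling without muscle, skin, erythroid and mitochondrial genes, a filter of 5 TPM, a pseudocount of 0.1, and without the 2 libraries with skin transcripts. It was 1 after median centring, 3 without trend and robust shrinkage, 4 without a filter, 576 with array weights, 19 with only the 2 groups compared, 18 over the 12 libraries, and 4 with only the KO-ICB pair averaged, an alternative chosen after seeing the data. Leaving out 1 sample in turn gave 0 to 30, with 29 without the averaged KO-IgG pair. The 18 calls over the 12 libraries became 11 after median centring (8 of them shared), 2652 with array weights, 212 with only the 2 groups compared and 0 with the pairs averaged, and 3 to 28 without 1 library. The departure from the sum of single changes went from 0 genes to 9 without a filter, 1 over the 12 libraries and 0 to 7 without 1 sample. Over the 12 libraries it went from 1 gene to 2 under quantile normalization, median centring, no shrinkage trend and no filter, to 0 with a filter of 5 TPM, a pseudocount of 0.1 or averaged pairs, to 148 with array weights and to 0 to 1 without 1 library. The causes were not tested. Every named gene's fold change kept its sign under the alternatives run.

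Deviations of same-numbered KO-ICB and CTRL-IgG libraries correlated at 0.112, 0.0685 and 0.27. KO-ICB replicates 1 and 3 correlated best with the CTRL-IgG library of their own number. KO-ICB replicate 2, nearly the same library as replicate 1, correlated best with CTRL-IgG replicate 1 (0.134). Since it follows replicate 1, these values cannot decide whether replicate numbers pair the libraries. With the replicate number as a block over the 12 libraries, 8 genes passed (7 higher, 1 lower, 7 shared with the 18) and 0 departures were called. Unknown depth limits the low genes most.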

Other observations

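Cell death and stress genes were not described above, and their counts stand beside 11.5% of all genes tested above CTRL-IgG and 14.1% below. Of 19 genes that execute cell death, 4 had all KO-ICB libraries above CTRL-IgG and 1 below, with a median log2 fold change of 0.03 that changed sign with the samples used. Of 16 genes of the integrated stress response, 1 lay above and 4 below, with a median of -0.32. Of 12 heat shock genes, 4 lay below and none above. Adjacent to the threshold of the 12 libraries lay Pear1, a platelet and endothelial receptor, at 29.6, 33.2 and 21.4 TPM in CTRL-IgG and 3.55, 3.85 and 3.41 TPM in KO-ICB, below all 9 other libraries, with an adjusted p of 0.0629. Ptgfrn, a tetraspanin partner, was at 113, 107 and 82.3 TPM against 51.1, 48.8 and 39.7 TPM, also with an adjusted p of 0.0629 over the 12 libraries.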
